A study of Mus musculus with 8 samples.

Results

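The genes described here are 33 genes that mark astrocytes, followed from the dorsal to the ventral end of the mouse medial entorhinal cortex (MEC). They were given by name, all 33 were found by symbol among the 38553 genes of the deposited expression table, and all 33 were among the 13674 genes tested for a dorsoventral difference. No measured value was used to choose them, but the choice was made with earlier results of these data known. RNA-Seq was performed on 4 dorsal and 4 ventral libraries from 13 male C57Bl/6JolaHsd mice aged 8 weeks, and no treatment or transgene is given for either group. From each brain a 400 µm sagittal slice with the right MEC was cut, its dorsal and ventral parts were dissected, and tissue of 3 or 4 mice was pooled by region, so each library is a pool. Dorsal and ventral pools came from the same 4 groups of mice, but which libraries share a group is not given, so they were compared unpaired. Because the tissue holds all cell types of the cortex, fewer astrocytes and less RNA per astrocyte cannot be told apart in any result below.

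Astrocytes are the glial cells that surround synapses and blood vessels. They clear glutamate from the synaptic cleft and return it to neurons as glutamine, they buffer potassium and move water at their vascular end feet, and gap junctions join them into networks. Their genes include transporters, channels, metabolic enzymes and secreted lipid carriers, together with the filament protein GFAP, which is abundant in astrocytes near the brain surface and in white matter and rises when astrocytes react to injury. Several of these genes are not made by astrocytes alone: glutamine synthetase (*Glul*), *S100b* and the potassium channel gene *Kcnj10* are also expressed by oligodendrocytes, *Apoe* by microglia, and *Vim* by cells of vessels and meninges.

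The unit of level is FPKM, in which fragments are scaled to the exon length of the gene and to the depth of the library, so genes can be compared within a library. The columns of the deposited table are headed D1, V1, D2, V2, D3, V3, D4 and V4. The mean over the first 4 of them equals the dorsal FPKM that the study lists for 1620 of 1620 genes compared (within 0.1%), and the mean over the last 4 equals the ventral FPKM for 1620 of 1620. The first 4 columns are therefore called dorsal 1 to dorsal 4 and the last 4 ventral 1 to ventral 4, in the order of the columns. This goes against the letter in the header for 4 of the 8 libraries, and no label decides it. Of the 13674 genes, 293 were higher dorsally and 198 ventrally past the threshold described below under this assignment, against 1 and 0 under the headers' own regions (limma, 721 at an unadjusted p under 0.05), where none of the 33 passed. Over genes, which do not count as replicates, libraries of one region correlated with Pearson's r of 0.971 to 0.985 on log2(FPKM + 1), and libraries of different regions with 0.965 to 0.982. Total depth is not given here.

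All 33 genes were expressed. The mean over the 8 libraries was highest for *Slc1a2*, which encodes the main glutamate transporter GLT-1, at an FPKM of 658, followed by *Glul* at 269, *Ndrg2* at 252, *Atp1b2* at 211, *Aldoc* at 160.0 and *Clu* at 155. It was lowest for *Chrdl1*, a secreted BMP antagonist, at 1.28, and for 25 of the 33 the mean FPKM reached 10 or more. The median of the 33 means was 21.4, against 7.98 for all genes tested. The common astrocyte reporter gene *Aldh1l1*, a folate enzyme, was among the lowest at 3.80, below *Gfap* at 20.2. The genes lie on 16 chromosomes, and exons of 6 of them overlap another gene.

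Summed as a class, the astrocyte genes did not separate the regions. The summed FPKM of the 33 genes lay between 2283 and 2414 in dorsal libraries and between 2230 and 2463 in ventral libraries, so the groups overlapped, and the ventral mean was 0.995 times the dorsal mean. Genes of high level weigh most in this sum, with *Slc1a2* alone at a mean FPKM of 658. Summed by role, genes of glutamate and GABA uptake and glutamine lay between 1049 and 1164 dorsally and between 953 and 1045 ventrally. Transcription, differentiation and glial progenitor genes lay between 303 and 333 dorsally and between 343 and 392 ventrally. This sum is mostly *Ndrg2* and *Fabp7*, with a mean FPKM of 252 and 79.9, against 8.47 for *Id4* and 5.79 for *Sox9*. On the deposited FPKM these role sums separated in opposite directions, the first narrowly, and those of the other roles overlapped. They were not examined under another scaling, and *Slc1a2*, at a mean FPKM of 658, weighs most in the first. In log2 fold change of ventral over dorsal on the log2(FPKM + 1) scale, the median of the 33 genes was 0.04, against −0.01 for all genes tested, with 18 genes above 0 and 15 below. By limma, with an adjusted p under 0.05 over all genes tested and a change of at least 20%, 1 of the 33 genes was higher ventrally (V>D) and 0 were higher dorsally (D>V). Over all genes tested, 1.45% were V>D and 2.14% D>V. At an unadjusted p under 0.05, 8 of the 33 (24.2%) were higher ventrally, against 7.31% of all genes, and 2 (6.06%) were higher dorsally, against 8.71%. For 5 of the 33 genes (15.2%) every ventral library lay above every dorsal one, against 4.95% of all genes. For 4 (12.1%) every dorsal library lay above every ventral one, against 6.17% of all genes. Overlap was judged on the deposited FPKM only and was not examined under another scaling. Total FPKM ran from 0.938 (ventral 1) to 1.07 (dorsal 4) times its mean over the libraries. Narrow separations may therefore depend on the scaling. The median absolute log2 fold change was 0.11 for the 33 genes and 0.10 for all genes tested.

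**Figure D1:**
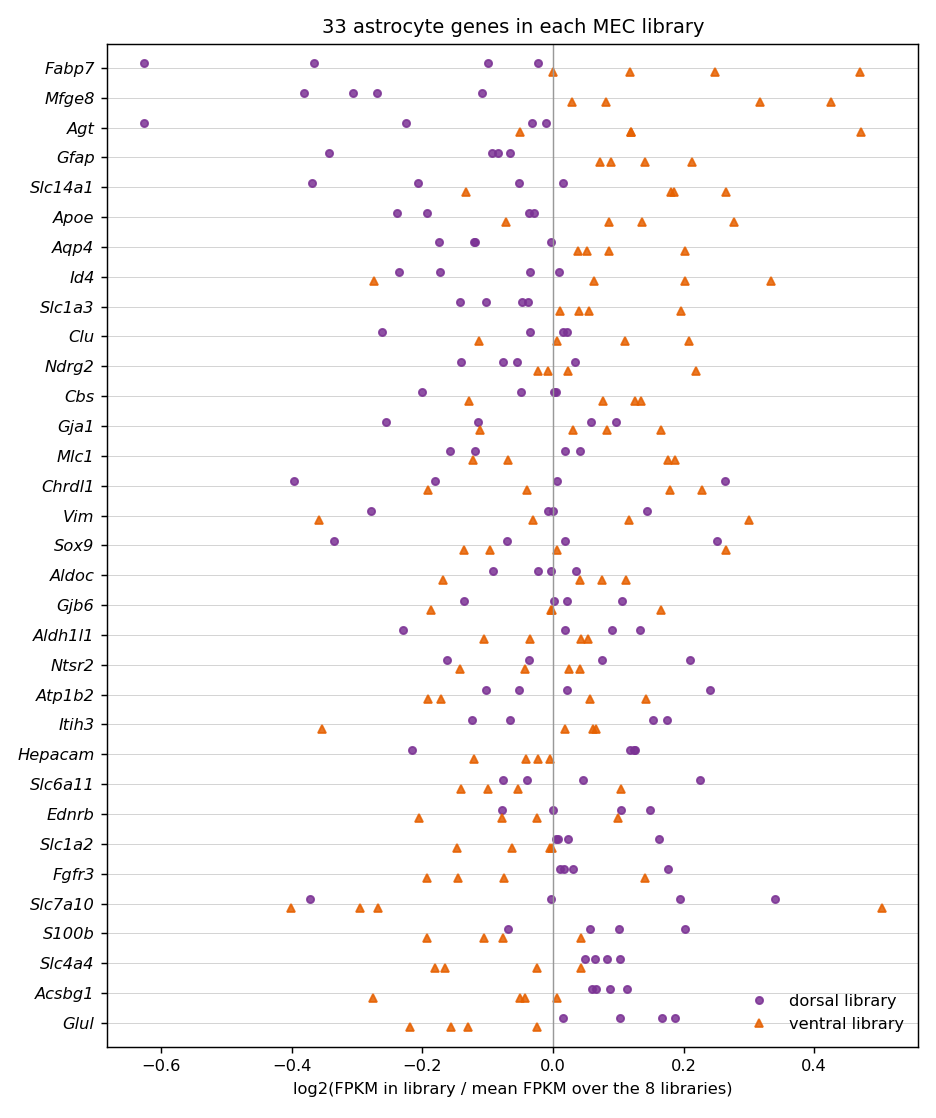
Level of each of the 33 astrocyte genes in each library, as log2 of its FPKM over its mean FPKM in the 8 libraries (x axis), with genes ordered by their log2 fold change (y axis), dorsal libraries as circles and ventral libraries as triangles. Dorsal and ventral libraries are apart for *Fabp7*, *Mfge8*, *Gfap*, *Aqp4* and *Slc1a3* at the top and for *Slc1a2*, *Slc4a4*, *Acsbg1* and *Glul* at the bottom, and they mix for the other 24 genes.

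**Figure D2:**
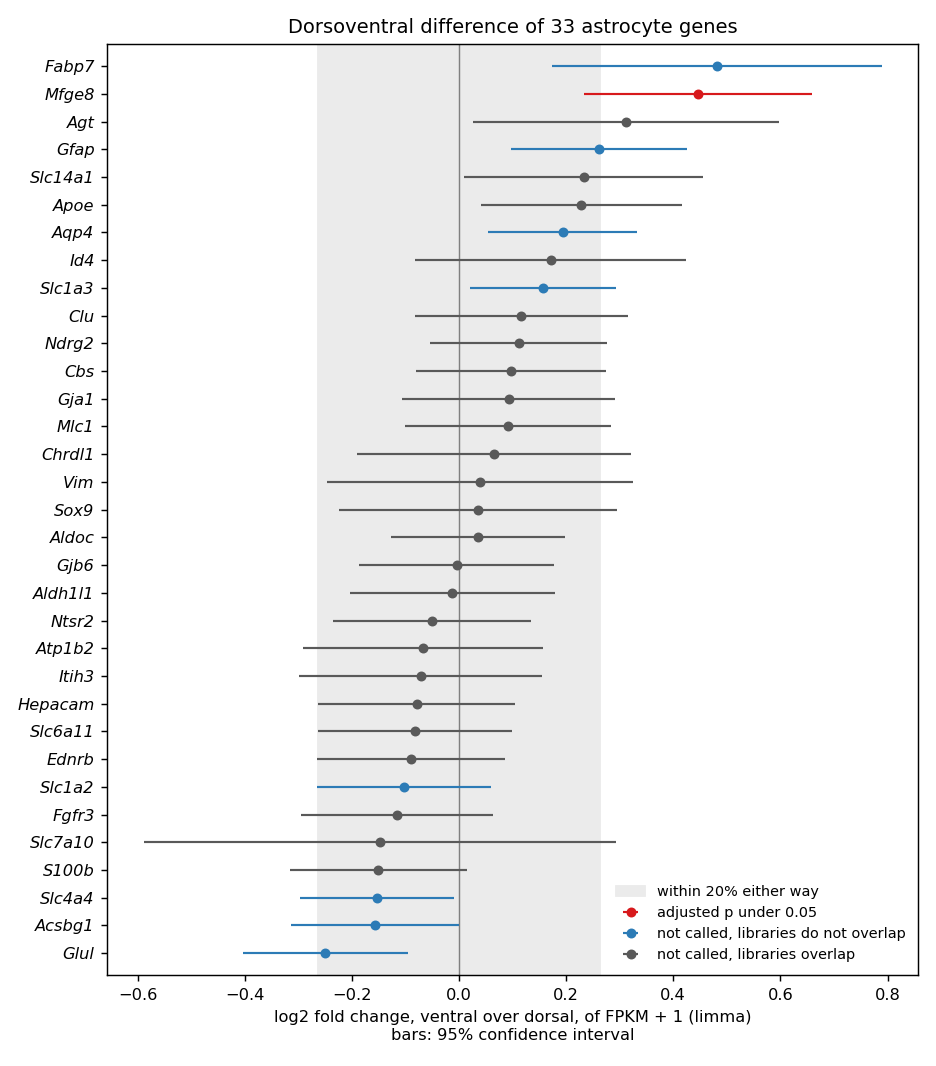
Log2 fold change of ventral over dorsal MEC on the log2(FPKM + 1) scale with its 95% confidence interval (x axis) for the 33 genes (y axis), with a grey band for changes under 20%. The 1 gene past the threshold, *Mfge8*, is in red, and the 8 genes in blue have libraries that do not overlap but missed the threshold.

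On the log2(FPKM + 1) scale the fold changes ran from −0.25 for *Glul* to 0.48 for *Fabp7*, and 30 of the 33 were smaller than 20% in either direction. In mean FPKM, the ventral excess was above 20% for *Mfge8* (40.0%), *Fabp7* (39.4%), *Agt* (30.2%), *Slc14a1* (21.2%) and *Gfap* (20.8%). The 95% interval on the log2(FPKM + 1) scale lay wholly within 20% in either direction for 5 of the 33 genes, namely *Hepacam*, *Ntsr2*, *Aldh1l1*, *Gjb6* and *Aldoc*. It did so for 28.6% of all genes tested. For the other 28 genes a difference of 20% in at least one direction was within the interval, so with 4 pools a region a change of that size was not distinguished from a smaller one.

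Among the 6 genes for secreted proteins, *Mfge8* was V>D. It encodes a secreted glycoprotein that tags dying cells and debris for uptake by phagocytes, and lies on chromosome 7 from 79133768 to 79149060 (GRCm38, minus strand). Its FPKM was 12.3, 10.99, 10.7 and 10.2 in dorsal 1 to 4 and 17.8, 13.5, 16.5 and 14.0 in ventral 1 to 4. Every ventral library was above every dorsal library, and the lowest ventral value exceeded the highest dorsal value by less than the spread among the ventral libraries. The means were 11.04 ± 0.901 (SD, n = 4) and 15.5 ± 2.03 (SD, n = 4), a 1.40-fold ventral excess, with a log2 fold change of 0.45 (SE 0.10, 95% interval 0.23 to 0.66, adjusted p = 0.0309, limma). The call depended on single libraries. In the 8 fits that each left out 1 library the log2 fold change lay between 0.38 and 0.50, but *Mfge8* passed in 3 of 8 fits. It missed without dorsal 2, dorsal 3, dorsal 4, ventral 1 or ventral 3, with an adjusted p of up to 0.0894 (limma). After libraries had been brought to one total of FPKM it also missed (adjusted p = 0.0509, limma). It missed too with neither the FPKM filter nor the authors' mark for enough alignments (adjusted p = 0.0709, limma).

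The promoter of *Mfge8* is shown because it is the one member past the threshold. It is 300 bases from RefSeq on GRCm38.p6, chr7:79149011-79149310, minus strand, written 5′ to 3′, with the 50 bases from the annotated start in capitals.
*Mfge8* promoter: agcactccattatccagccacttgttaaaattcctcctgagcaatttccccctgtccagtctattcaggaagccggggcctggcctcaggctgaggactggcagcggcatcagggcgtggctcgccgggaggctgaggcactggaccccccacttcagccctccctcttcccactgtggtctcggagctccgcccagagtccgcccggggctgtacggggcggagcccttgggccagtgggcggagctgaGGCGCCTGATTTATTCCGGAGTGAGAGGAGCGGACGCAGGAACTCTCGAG
Its GC content was 64.3%, against 53.8% over all promoters in the table. Letters of 4 motifs of factors active in glia were each searched on both strands, regardless of overlap with another motif. They were TTGGCA of the NFI family, TTCNNNGAA of the STAT family, ACAATGG of the SOX family and the E-box CAGCTG. None of the 4 occurs in this window. Promoters of 27 of the 33 genes were in the table, and the STAT letters occurred in those of 6 (*Acsbg1*, *Agt*, *Aldoc*, *Gfap*, *Ntsr2* and *Slc1a3*), or 17.6% of their 34 promoters, against 8.30% of all 32851 promoters. The NFI letters occurred in 11.8% of the 34, against 14.1% of all promoters, the E-box in 8.82%, against 16.3%, and the SOX letters in 0, against 3.66%. These are matches of letters and not binding sites.

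The other secreted proteins showed smaller differences and did not pass the test. *Apoe* encodes apolipoprotein E, the main lipid carrier of the brain, and had an FPKM of 81.2, 90.5, 91.0 and 78.6 in dorsal and 112, 88.3, 98.5 and 102 in ventral libraries. Only ventral 2 fell within the dorsal range, and the log2 fold change was 0.23 (SE 0.08, adjusted p = 0.207, limma). *Agt*, the precursor of angiotensin, had the third largest fold change at 0.31 (SE 0.13, adjusted p = 0.266, limma), with a dorsal mean FPKM of 3.72 ± 0.684 (SD, n = 4) and a ventral mean of 4.85 ± 0.769 (SD, n = 4), with overlapping libraries. *Clu*, the chaperone and lipid carrier clusterin, had a fold change of 0.12 on the log2 scale, *Chrdl1* one of 0.07 and *Itih3*, a hyaluronan-binding serum protein family member, one of −0.07. The fold change of 5 of these 6 genes was thus above 0, and their median was 0.17.

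The 4 genes of the transcription, differentiation and glial progenitor group were all above 0 in log2 fold change, and none passed the test. *Fabp7* encodes the fatty acid binding protein of radial glia and astrocytes and lies on chromosome 10 from 57784881 to 57788450. Its FPKM was 78.6, 74.6, 62.0 and 51.8 in dorsal libraries and 111, 94.8, 86.7 and 79.9 in ventral libraries. The regions did not overlap, although dorsal 1 and ventral 4 nearly met, and the spread within each region was wide. The means were 66.8 ± 12.2 (SD, n = 4) and 93.0 ± 13.2 (SD, n = 4), a 1.39-fold excess close to that of *Mfge8*, but with a log2 fold change of 0.48 and SE of 0.14 it missed the threshold (adjusted p = 0.0976, limma). *Id4*, an inhibitor of basic helix-loop-helix factors, had a fold change of 0.17 on the log2 scale and *Ndrg2*, a differentiation-related gene, one of 0.11. For *Sox9*, the transcription factor of the astrocyte lineage, the fold change was 0.04 with an interval of −0.22 to 0.30, and its sign turned under one scaling (−0.006 with libraries scaled to the 33 genes).

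Of the filament and calcium-binding genes, *Gfap* was higher in every ventral library but did not pass. The gene lies on chromosome 11 from 102887336 to 102900912. Its FPKM was 19.0, 19.3, 18.9 and 15.9 in dorsal libraries and 21.5, 22.3, 23.4 and 21.2 in ventral libraries. Dorsal 4 stood below the other dorsal libraries, and the difference was present without it, since the other 3 dorsal values were also below all 4 ventral values. The log2 fold change was 0.26 (SE 0.07, 95% interval 0.10 to 0.43, adjusted p = 0.0914, limma), and 0.20 to 0.29 when 1 library was left out. *Vim*, the other intermediate filament gene, did not separate, and its fold change (0.04) turned to −0.006 with libraries scaled to the 33 genes, with an FPKM between 9.46 and 12.7 in dorsal and between 8.96 and 14.1 in ventral libraries. *S100b*, a calcium-binding protein gene, had a log2 fold change of −0.15 (SE 0.07, adjusted p = 0.363, limma).

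**Figure D3:**
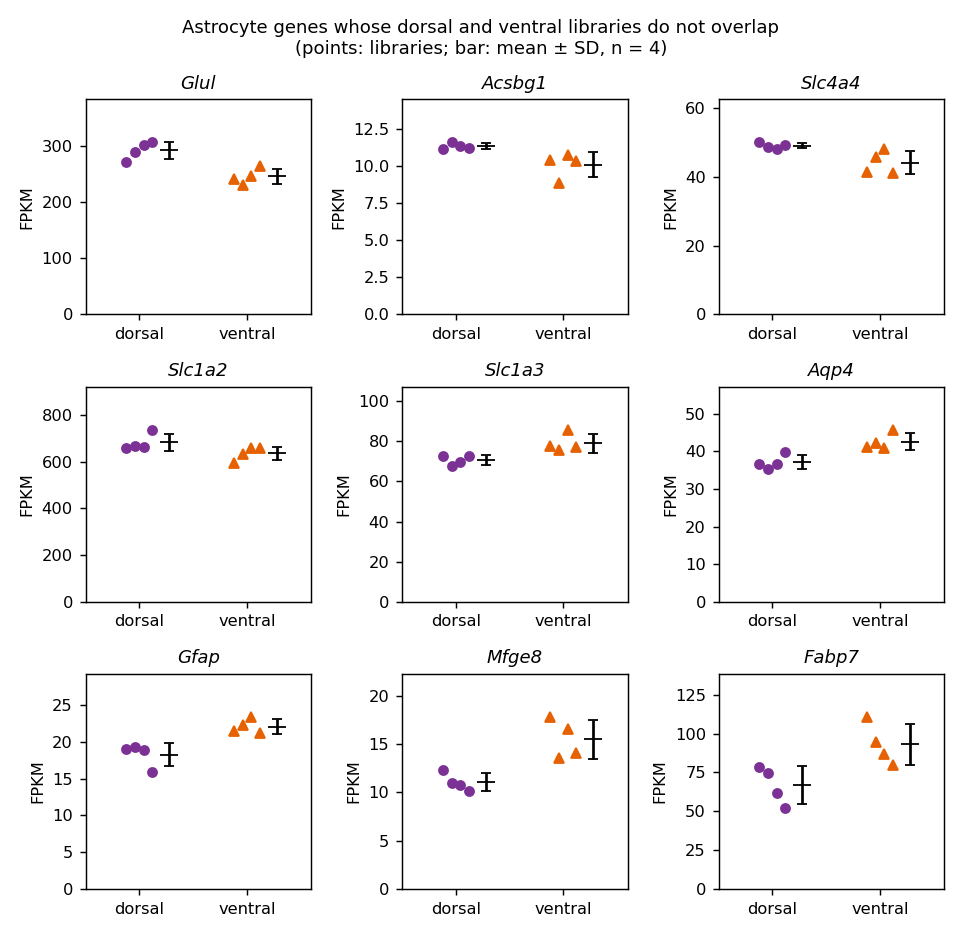
FPKM as deposited (y axis, from 0) in the 4 dorsal (circles) and 4 ventral (triangles) libraries, with the mean and SD beside the points. Shown are the 9 astrocyte genes whose regions do not overlap at this scaling. Overlap under another scaling was not examined. *Glul*, *Acsbg1*, *Slc4a4* and *Slc1a2* are lower in all ventral libraries, *Slc1a3*, *Aqp4*, *Gfap*, *Mfge8* and *Fabp7* are higher, and *Mfge8* is the one that passed the test.

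None of the genes of the glutamate-glutamine cycle passed the test, but for 3 of them the regions did not overlap, in different directions. *Glul* lies on chromosome 1 from 153899944 to 153909723 and encodes glutamine synthetase, which makes glutamine from the glutamate that astrocytes take up. Its FPKM was 272, 289, 302 and 306 in dorsal libraries and 242, 231, 246 and 265 in ventral libraries, so every dorsal library was above every ventral one. The dorsal mean was 1.19 times the ventral mean, with a log2 fold change of −0.25 (SE 0.07, 95% interval −0.40 to −0.10, adjusted p = 0.0872, limma). Exons of *Glul* overlap *Teddm2* and *Mir8114*, and whether counting used strand is not given in the sources used here.

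The glutamate transporter genes had fold changes of opposite sign. *Slc1a2* (GLT-1, chromosome 2 from 102658659 to 102790784, with exons that overlap *Gm13872*) had an FPKM of 660, 668, 662 and 736 in dorsal and 594, 630, 658 and 656 in ventral libraries. Dorsal 1 and ventral 3 were nearly equal, and the log2 fold change was −0.10 (SE 0.07, adjusted p = 0.565, limma). Its sign depended on the scaling, at 0.014 after quantile normalization. *Slc1a3* (GLAST, chromosome 15 from 8634124 to 8710764) had an FPKM of 72.9, 67.9, 69.7 and 72.5 in dorsal and 77.8, 75.5, 85.8 and 77.0 in ventral libraries, with no overlap and a log2 fold change of 0.16 (SE 0.06, adjusted p = 0.237, limma).

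A ratio of 2 genes within a library is unchanged when all genes of that library are multiplied by the same factor. Quantile normalization is not such a scaling and can change it. The ratio of *Slc1a3* to *Slc1a2* was 0.111, 0.102, 0.105 and 0.0985 in dorsal libraries and 0.131, 0.120, 0.131 and 0.117 in ventral libraries. All 4 ventral ratios lay above all 4 dorsal ratios, with means of 0.125 ± 0.00706 (SD, n = 4) and 0.104 ± 0.00521 (SD, n = 4). The ratio of *Slc1a3* to *Glul* averaged 0.242 ± 0.0172 (SD, n = 4) dorsally and 0.322 ± 0.0239 (SD, n = 4) ventrally, again without overlap. *Slc1a3* was higher in every ventral library, and *Slc1a2* and *Glul* were each lower in every ventral library. These ratios therefore had to separate the regions, and they add nothing to the values of the single genes. The ratio of the gap junction genes *Gja1* to *Gjb6* ranged from 0.685 to 1.03 in dorsal and from 0.802 to 1.12 in ventral libraries, and that of *Gfap* to *Vim* from 1.52 to 1.68 and from 1.57 to 2.37, so both overlapped. These pairs were formed after the values had been seen, and no test was made of them.

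The amino acid transporters of the same group showed no separation. *Slc6a11*, the GABA transporter GAT-3, had a log2 fold change of −0.08 with an interval of −0.26 to 0.10. *Slc7a10*, a transporter of serine and other small neutral amino acids, varied most between libraries of one region, with ventral 3 at an FPKM of 32.3 and the other ventral libraries between 17.3 and 18.9. Its log2 fold change of −0.15 had an SE of 0.20, the largest of the 33 genes. It was −0.35 without ventral 3 and −0.051 without dorsal 4, and its exons overlap *Lrp3*.

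Among genes of water, ion and urea transport and of the perivascular membrane, *Aqp4* and *Slc4a4* had no overlap between regions, in opposite directions, and did not pass the test. *Aqp4*, the water channel of astrocyte end feet, had an FPKM of 36.6, 35.3, 36.7 and 39.7 in dorsal and 41.3, 42.3, 40.9 and 45.8 in ventral libraries. The log2 fold change was 0.19 (SE 0.06, adjusted p = 0.142, limma). *Slc4a4*, a sodium bicarbonate cotransporter gene, had an FPKM of 49.95, 48.7, 48.1 and 49.3 in dorsal and 41.5, 45.8, 47.9 and 41.1 in ventral libraries, and its dorsal values were tightly grouped. Its log2 fold change was −0.15 (SE 0.06, adjusted p = 0.278, limma). The urea transporter gene *Slc14a1* had a log2 fold change of 0.23 (SE 0.10, adjusted p = 0.292, limma), with overlapping libraries. *Mlc1* and *Hepacam* encode membrane partners at astrocyte contacts, and their fold changes were 0.09 and −0.08 on the log2 scale. For *Atp1b2*, a sodium pump subunit, the value was −0.07.

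Libraries of the regions overlapped for both gap junction genes. The dorsal and ventral mean FPKM of *Gjb6*, which encodes a connexin, was 33.3 ± 2.29 (SD, n = 4) and 33.3 ± 3.31 (SD, n = 4), with a log2 fold change of −0.0046, an interval of −0.19 to 0.18 and a sign that turned under 3 of 4 scalings (0.0014 to 0.043). For the connexin gene *Gja1* it was 28.4 ± 3.14 (SD, n = 4) and 30.2 ± 2.40 (SD, n = 4), with an interval of −0.11 to 0.29 on the log2 scale. Of the metabolic enzymes, *Aldoc*, the brain aldolase, had a log2 fold change of 0.04 and an interval of −0.13 to 0.20, and *Aldh1l1* one of −0.01. Both changed sign under a scaling, *Aldoc* to −0.014 with libraries scaled to the 33 genes and *Aldh1l1* to 0.027 with libraries rescaled to one total. For *Cbs*, which makes cystathionine, the value was 0.10. *Acsbg1*, an acyl-CoA synthetase gene, did not overlap between regions: its FPKM lay between 11.2 and 11.6 in dorsal and between 8.87 and 10.8 in ventral libraries, with a log2 fold change of −0.16 (SE 0.07, adjusted p = 0.315, limma). The 3 receptor genes were all slightly below 0, with −0.11 for *Fgfr3*, a receptor of fibroblast growth factors, −0.09 for the endothelin receptor gene *Ednrb* and −0.05 for the neurotensin receptor gene *Ntsr2*.

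Of 50 other astrocyte genes, 48 were tested, and 1 was D>V and 3 were V>D, against 2.14% and 1.45% of all genes tested. An unadjusted p under 0.05 was reached by 12 of the 48 (limma). Over all genes tested, 8.71% reached it with a higher dorsal level and 7.31% with a higher ventral level. Regions did not overlap for 4 of the 48 higher dorsally and 6 higher ventrally, against 6.17% and 4.95% of all genes. The median log2 fold change of the 48 was 0.01, with 22 genes below and 26 above 0. *Kcnj10*, which encodes the inward rectifier Kir4.1 that buffers potassium, was the D>V gene, and its fold change was larger in size than that of any of the 33. Its FPKM was 49.1, 52.3, 51.1 and 46.8 in dorsal and 30.7, 31.3, 33.9 and 27.9 in ventral libraries. The regions were far apart, with a 1.61-fold dorsal excess and a log2 fold change of −0.67 (SE 0.07, adjusted p = 0.000942, limma), and it passed in all 8 fits that left out a library. The V>D genes were *Hes5*, a Notch target (0.57 on the log2 scale, adjusted p = 0.0379, limma), *Papss2*, an enzyme of sulfate activation (0.45, adjusted p = 0.0210, limma), and *Slc7a11*, the cystine-glutamate exchanger (0.28, adjusted p = 0.0436, limma). With a library left out, *Hes5* passed in 1 of the 8 fits (without ventral 3), *Papss2* in 3 (without dorsal 4, ventral 2 or ventral 4) and *Slc7a11* in 0, with an adjusted p of up to 0.116, 0.0738 and 0.136 (limma).

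Genes that rise in reactive astrocytes were mostly low, with a mean FPKM under 1 for 12 of 22. Of the 10 tested, 0 were called by limma in either direction and 1 had an unadjusted p under 0.05, with a median log2 fold change of 0.16 and 9 of 10 above 0. Of 16 ligands and partners of the receptors above, 13 were tested, 5 had an unadjusted p under 0.05 (limma) and 1 passed. This was *Nts*, the neurotensin precursor and ligand of the receptor encoded by *Ntsr2*, whose mean FPKM was 0.770 ± 0.312 (SD, n = 4) dorsally and 4.14 ± 0.631 (SD, n = 4) ventrally, with a log2 fold change of 1.55 (adjusted p = 0.00041, limma). *Nts* met the minimum mean FPKM of 1 for testing only through its ventral libraries, where it is high. *Ntsr2* itself was at 30.2 ± 3.33 (SD, n = 4) dorsally and 29.1 ± 1.65 (SD, n = 4) ventrally.

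Lists of markers of other cell types were followed in the same libraries. All 12 oligodendrocyte genes were D>V and had no overlap between regions, with a median log2 fold change of −0.86, and their summed FPKM lay between 956 and 1264 in dorsal and between 520 and 684 in ventral libraries, 1.82-fold higher dorsally. The largest was *Mobp*, a myelin protein gene, at −1.02 (adjusted p = 0.00339, limma). None of the 12 was at 0 in every library. The oligodendrocyte difference had the direction of *Glul*, *Kcnj10* and *S100b*, which oligodendrocytes also express, although libraries overlapped for *S100b* (adjusted p = 0.363, limma). *Slc1a2*, *Slc4a4* and *Acsbg1* were also lower in all ventral libraries. The part of the oligodendrocyte difference in these values was not tested. Of 8 oligodendrocyte precursor genes, *Olig1* alone passed, at −0.43 (adjusted p = 0.0102, limma), and the median was −0.01. Of these 8, 3 had an unadjusted p under 0.05 (limma). Regions did not overlap for 1 of them higher dorsally and 2 higher ventrally.

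Leptomeningeal genes moved the other way. Of 9 tested, *Dcn* (0.97, adjusted p = 0.00246, limma), *Igf2* (0.56, adjusted p = 0.000775, limma) and *Aldh1a2* (0.45, adjusted p = 0.0162, limma) were V>D and 9 were above 0, and the summed FPKM of the 10 listed lay between 87.8 and 95.5 in dorsal and between 136 and 147 in ventral libraries. An unadjusted p under 0.05 was reached by 6 of the 9 (limma). *Aldh1a2* missed without ventral 1 (adjusted p = 0.0579, limma). None was at 0 in every library. The 1.55-fold ventral excess had the direction of *Mfge8*, *Gfap*, *Fabp7*, *Aqp4* and *Slc1a3*, which were higher in all ventral libraries. For 4 of the 33 astrocyte genes all ventral libraries were lower. *Vim*, which cells of the meninges also express, had a log2 fold change of 0.04 with overlapping libraries. The part of the leptomeningeal excess in these values was not tested. Microglial genes (0 of 10 called by limma and 2 at an unadjusted p under 0.05, summed FPKM 95.5 to 106 in dorsal and 97.6 to 118 in ventral libraries), endothelial genes (0 of 9 and 2) and mural genes (0 of 6 and 0) did not pass, with median log2 fold changes of 0.11, −0.21 and −0.10. Ependymal and choroid plexus genes were low, with a mean FPKM under 1 for 7 of 10, 1 at 0 in every library, 3 tested, none called by limma, 0 at an unadjusted p under 0.05, and a summed FPKM of at most 6.13. Of 10 glutamatergic markers, 1 was D>V, the vesicular glutamate transporter gene *Slc17a6* (−0.52, adjusted p = 0.00235, limma), and 2 had an unadjusted p under 0.05. Among 10 GABAergic markers, 7 had an unadjusted p under 0.05, against 8.71% of all genes tested for dorsally higher genes and 7.31% for ventrally higher ones. The libraries of the regions were apart for 3 markers that were higher dorsally and 2 that were higher ventrally, against 6.17% and 4.95% of all genes. Past the threshold, *Pvalb* (−1.13, adjusted p = 0.000942, limma) and the neuropeptide Y gene *Npy* (−0.95, adjusted p = 0.00279, limma) were D>V and the somatostatin gene *Sst* (1.02, adjusted p = 0.0147, limma) was V>D, while the median of the list was 0.06. *Sst* missed without dorsal 2 (adjusted p = 0.0553, limma). The part of these neuronal differences in the astrocyte values was not tested.

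**Figure D4:**
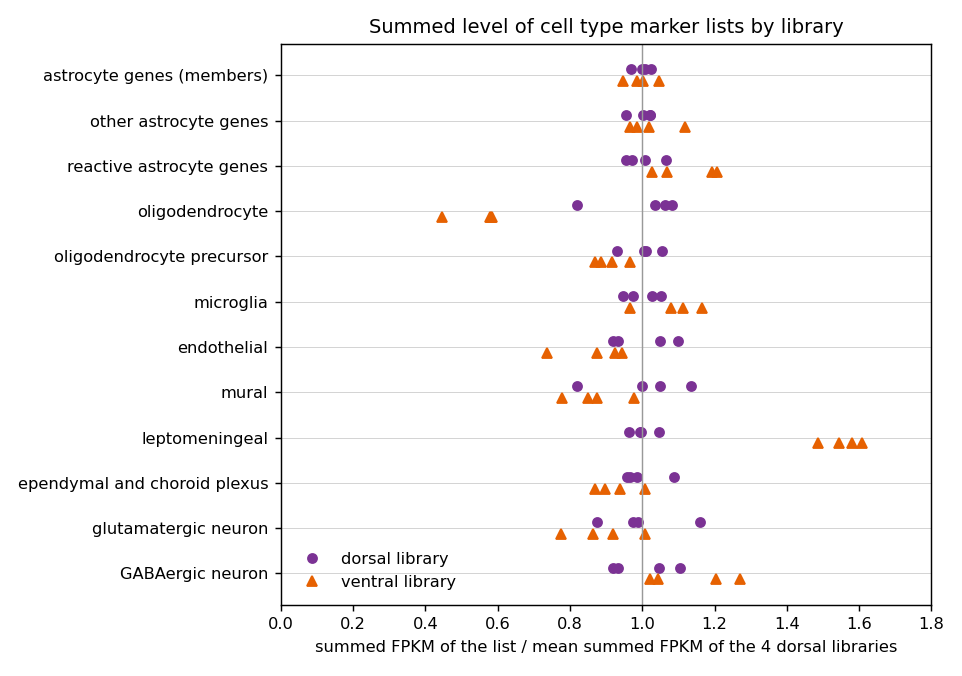
Summed FPKM of each marker list in each library, divided by the mean of the 4 dorsal libraries (x axis, from 0), with dorsal libraries as circles and ventral libraries as triangles. The 33 astrocyte genes and the other astrocyte genes stay near 1 in both regions, while oligodendrocyte genes are lower and leptomeningeal genes higher in all 4 ventral libraries.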

How the data were processed

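RNA was extracted from 4 pools a region (integrity numbers 7.1 to 8.5), and 120 ng per sample was amplified with the Ovation kit and sequenced in pairs on Illumina HiSeq. The authors processed reads with CASAVA 1.8, aligned them with TopHat2 2.0.8 to the Ensembl release 73 mouse genome and ran Cuffdiff 2. The authors deposited FPKM from Cuffdiff 2, which scales libraries to each other, with 1 value for each gene in each library. Their comparison table also holds the authors' fold changes, p-values and q-values, which were not used. A long table of estimated fragments names libraries by a condition code and a number that no label carries. It could be matched to the 8 columns by its FPKM, but samples were assigned to it by name alone, so its 4 value columns were left out, the count test was not run, and total depth is not given.

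Genes with enough alignments by the authors' mark and a mean FPKM of at least 1 were compared on log2(FPKM + 1) with limma 3.58.1 in R 4.3.3, with a mean-variance trend. This is the substitute that the design named for a count test. Adding 1 understates the change of low genes. Adjusted p is by Benjamini-Hochberg over all 13674 genes. A call needed an adjusted p under 0.05 and a fold change of at least 1.2. Members and lists were chosen with earlier results of these data known. Of the lists other than the 33 genes, at most the 5 called genes with the largest change were named. Lists are given by counts and medians. Dorsal and ventral pools share 4 groups of mice, but the sources used here do not say which libraries form a pair. Positions are from GENCODE M21 (GRCm38). The fit was tested on simulated data. Tables and plots used Python 3.11.15, pandas 2.3.3, NumPy 2.4.6 and matplotlib 3.10.9.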

Additional observations from a re-analysis of the deposited data

Results flagged for a closer look

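In 66 sets of 4 libraries (33 genes in 2 regions), 6 held a library far from the other 3 by Dixon's test, where chance gives about 1 in 20 sets, or 3.3. In dorsal 4, *Gfap* was low, with an FPKM of 15.9 against 18.9 to 19.3 in the other dorsal libraries, and *Slc1a2* was high, with 736 against 660 to 668. *Fgfr3* was high in dorsal 2, with 11.4 against 10.2 to 10.3. *Hepacam* was low in dorsal 1, with 10.1 against 12.8 in each of the others. Among ventral libraries, *Slc7a10* was high in ventral 3, with 32.3 against 17.3 to 18.9, and *Itih3* was low in ventral 4, with 4.08 against 5.28 to 5.45.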

How the results depend on the processing

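Beyond the 8 fits that left out a library, 11 alternatives were run, and the first 6 named here were planned. A constant of 0.1, a minimum FPKM of 5, a threshold on the ratio of mean FPKM and no fold threshold kept 1 V>D and 0 D>V astrocyte genes. With neither the FPKM filter nor the authors' mark for enough alignments, which tests 24195 genes, 0 were V>D. With the regions of the headers, 0 astrocyte genes were V>D, 1 and 0 of all genes were D>V and V>D, and the median of the astrocyte genes was −0.059. Of the named genes with an unadjusted p under 0.05, log2 fold changes then reversed for *Glul* (0.038), *Slc1a3* (−0.061), *Apoe* (−0.087), *Gfap* (−0.076), *Mfge8* (−0.20), *Agt* (−0.028), *Slc14a1* (−0.096), *Fabp7* (−0.17), *Papss2* (−0.018), *Slc7a11* (−0.0085), *Mobp* (0.25), *Aspa* (0.075), *Ermn* (0.25), *Dcn* (−0.18), *Slc17a6* (0.0031), *Pvalb* (0.22) and *Npy* (0.23).

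The other 5 were added after seeing the data. With libraries rescaled to one total FPKM, 0 astrocyte genes were V>D, and 195 of all genes were D>V and 201 V>D (49.2% D>V), against 293 and 198 (59.7%). With the 4 libraries where header and study name one region, 0 astrocyte genes, and of all genes 0 D>V and 0 V>D, were called, with 1240 at an unadjusted p under 0.05. Median-of-ratios scaling, quantile normalization and scaling to the 33 genes kept 1 V>D astrocyte gene, and the last gave 354 D>V and 148 V>D genes (70.5% D>V). With a library left out, between 0 and 1 astrocyte genes, and of all genes between 157 and 341 D>V and between 91 and 191 V>D, were called, and 0 astrocyte genes were D>V. Counts fell more than 1.5 times without dorsal 2 (157 D>V, 91 V>D), dorsal 4 (189 D>V), ventral 1 (163 D>V, 91 V>D), dorsal 3 (123 V>D) and ventral 3 (121 V>D). Of 23 astrocyte genes whose interval covers 0, up to 4 changed sign without a library, up to 3 under another scaling, 15 under the headers' regions and 9 with the 4 libraries. The cause of these changes was not tested.

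No paired analysis was possible because no label or header says which dorsal and ventral libraries share a group of mice, although the regions share the same 4 groups. Fits on fragment counts (edgeR normalizations and DESeq2) were left out by choice, since the fragment table matches the libraries by its values and not by name. What depth limits was not examined.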
